A study of Homo sapiens with 22 samples.

Results

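Of the 22988 E2F3 peaks called in control cells of the prostate cancer line 22Rv1, 12557 were not overlapped, by even 1 bp, by an E2F3 peak in cells overexpressing the linker histone variant H1-10, while a Pol2S5p peak lay over the same place in all 4 Pol2S5p lists of the series. These 12557 regions are the lost E2F3 sites at constant Pol2S5p described here. "Lost" and "constant" refer to the presence of a called peak, and the sites were chosen by these calls, so neither word is a measured change of binding. A further 441 E2F3 peaks of control cells lay in all 4 Pol2S5p lists and were found again under H1-10 overexpression; they are called kept sites. The remaining lost peaks, 9836 in number, missed at least 1 Pol2S5p list, and 4774 of them lay in none.

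Chromatin immunoprecipitation with sequencing was done in 22Rv1, an established human prostate carcinoma line. The groups used were cells overexpressing H1-10 (H1-10 OE) against control cells (Ctrl) for E2F3, Pol2S5p and H3K27me3, and cells given an siRNA against E2F3 (siE2F3) against cells given a control siRNA (siCtrl) for Pol2S5p. Every group was 1 library of the series' 22, so no difference has a replicate check and no test across samples was possible. The intervals given are 95% Wilson intervals for shares, Newcombe intervals for differences of shares and order-statistic intervals for medians; they cover counting error only, and regions are not replicates. E2F3 is a transcription factor of the activator class of E2F proteins, which bind DNA as dimers with a DP protein, are held in check by the retinoblastoma family and drive genes of DNA replication and the cell cycle. Pol2S5p is RNA polymerase II phosphorylated on Ser5 of its C-terminal repeats, the form found at the starts of active genes. H1-10 is a replication-independent linker histone, one of the proteins that bind the DNA between nucleosomes, and H3K27me3 is the histone mark of Polycomb repression.

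The lists differed in length. E2F3 had 4296 peaks in H1-10 OE and 22988 in Ctrl, Pol2S5p had 40626 in H1-10 OE and 35493 in Ctrl, and the siRNA lists of Pol2S5p held 83067 peaks in siE2F3 and 83650 in siCtrl. Read depth is unknown here, so fewer bound cells, weaker binding in each cell and a library with less signal cannot be told apart at a missing peak. The lists do not measure the amount of E2F3 or H1-10, so neither the knockdown nor the overexpression was checked. As a check of the cell line label, Pol2S5p peaks were looked for at the gene starts of luminal prostate markers. The starts of FOXA1, HOXB13 and SLC45A3 were covered in all 4 lists, and those of KLK2 and TMPRSS2 in Ctrl alone. KLK3 and ACPP were covered in none. Among markers of other cells, SYP was covered in all 4 lists, VIM in all but Ctrl and CHGA in Ctrl alone. COL1A1, DCN, PTPRC, CD3E and HBB were covered in none. Near COL1A1, however, a lost site at constant Pol2S5p had its E2F3 summit 735 bp from the start.

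Promoter sequence is shown for a few lost sites at starts of cell-cycle genes, the best known targets of E2F proteins; these starts are 65 of the 12557 sites. The annotated promoter sequence, 250 bases before to 50 after the gene start, was read from RefSeq on GRCh38.p14 by gene symbol, and not from the hg19 peak. The letters TTTCCCGC, TTTGGCGC and TTTCGCGC, forms of the E2F recognition sequence, were searched on both strands. The 4 promoters below were picked because they carry a match, shown in capitals, which most of these genes lack: TFDP1, the DP partner of E2F proteins, chr13:113584503-113584802 (+ strand); MCM2, a subunit of the replicative helicase, chr3:127598161-127598460 (+ strand); GINS1, a subunit of the GINS complex of that helicase, chr20:25407423-25407722 (+ strand); and POLE2, a subunit of DNA polymerase epsilon, chr14:49688165-49688464 (- strand).
TFDP1: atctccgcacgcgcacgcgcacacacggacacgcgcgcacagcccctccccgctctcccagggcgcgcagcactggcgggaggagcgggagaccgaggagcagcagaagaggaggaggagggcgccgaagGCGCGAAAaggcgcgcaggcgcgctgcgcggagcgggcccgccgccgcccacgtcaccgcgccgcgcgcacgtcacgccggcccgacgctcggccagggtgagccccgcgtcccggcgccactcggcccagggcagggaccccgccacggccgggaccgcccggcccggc
MCM2: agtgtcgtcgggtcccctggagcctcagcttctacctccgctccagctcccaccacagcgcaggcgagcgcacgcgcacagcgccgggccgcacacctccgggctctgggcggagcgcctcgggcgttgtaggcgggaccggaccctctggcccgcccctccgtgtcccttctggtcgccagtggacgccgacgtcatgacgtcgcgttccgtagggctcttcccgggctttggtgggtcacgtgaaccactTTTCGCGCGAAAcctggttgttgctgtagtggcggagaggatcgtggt
GINS1: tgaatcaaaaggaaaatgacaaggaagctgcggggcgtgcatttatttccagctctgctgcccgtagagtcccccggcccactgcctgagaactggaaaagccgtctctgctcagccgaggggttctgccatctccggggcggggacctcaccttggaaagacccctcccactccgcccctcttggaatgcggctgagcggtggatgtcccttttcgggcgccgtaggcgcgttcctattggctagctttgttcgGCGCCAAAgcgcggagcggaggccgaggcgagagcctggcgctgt
POLE2: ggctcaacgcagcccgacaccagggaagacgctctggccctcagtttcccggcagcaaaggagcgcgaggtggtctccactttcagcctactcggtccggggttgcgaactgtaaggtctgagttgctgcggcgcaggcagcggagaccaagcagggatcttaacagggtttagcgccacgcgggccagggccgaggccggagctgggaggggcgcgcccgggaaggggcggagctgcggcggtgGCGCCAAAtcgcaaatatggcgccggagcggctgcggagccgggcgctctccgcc
In MCM2 the capitals hold TTTCGCGC and its reverse complement GCGCGAAA, which overlap. GINS1 and POLE2 share the letters GCGCCAAA, the reverse complement of TTTGGCGC, and TFDP1 holds GCGCGAAA.

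A match to 1 of the 3 motifs was found in 9 of the 53 cell-cycle genes that had a lost site and a promoter sequence (95% interval of the share 9.20 to 29.2%). The other genes with a match were ORC3, POLA2, PCNA, SUZ12 and UHRF1. Among cell-cycle genes with a kept site, 28 of 51 held a match (54.9%, interval 41.4 to 67.7%). The share was 4.53% over 15842 protein-coding genes and 3.30% over all 27305 genes with a promoter. A gene was counted once if any of its promoters matched. The matches at lost sites fell on the replication lists, the E2F family and the chromatin genes: 3 of 9 genes of licensing and origin firing, 3 of 8 of the replication fork, 1 of 6 of the E2F family and 2 of 2 chromatin genes. The lists of G1 and S phase cyclins, of G2 and mitosis and of DNA repair held 0 of 9, 0 of 14 and 0 of 5. A match is a description of these letters in this window and not a bound site. A promoter read by symbol may also differ from the gene start at which the site lies. That of RB1, without a match, held 38.3% GC and 0 CpG, against medians of 65.3% and 26 over the cell-cycle genes with a lost site.

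Absence from the H1-10 OE list was the rule for nearly all E2F3 peaks and not a mark of the constant Pol2S5p class. Over all E2F3 Ctrl peaks 97.4% were absent from H1-10 OE, and over those in all 4 Pol2S5p lists 96.6%, which is the background for every count of lost sites below. By the number of Pol2S5p lists that covered a peak, the absent share was 98.5% for none, 98.0% for 1, 97.9% for 2, 99.1% for 3 and 96.6% for 4. Most lost sites were far from any of the 4296 E2F3 peaks of H1-10 OE. The median gap to the nearest was 437 kb, 330 sites (2.63%) had one within 10 kb and 50 within 1 kb. The gap at other E2F3 Ctrl peaks was not measured, so the distance is not read as a trait of these sites. At the boundary of the rule, the lost site with the smallest gap, chr4:89744267-89744641, lay 142 bp from an H1-10 OE peak, while the kept site with the smallest overlap, chr4:103711742-103712067, shared 21 bp with one.

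Outside the class, the Ctrl list of Pol2S5p was the one most often missing alone. Of the lost peaks there, 1434 missed the Ctrl list alone, 522 the H1-10 OE list alone, 122 the siE2F3 list alone and 16 the siCtrl list alone. A further 1588 lay in a Pol2S5p peak of Ctrl alone, against 66 in one of H1-10 OE alone, 68 of siE2F3 alone and 325 of siCtrl alone. By chromosome, from 41.7% of the E2F3 Ctrl peaks on chromosome 18 (interval 37.0 to 46.5%) to 64.6% on chromosome 19 (62.3 to 66.9%) were lost sites at constant Pol2S5p, leaving aside chromosome Y with 2 peaks. Chromosomes 17 and X stood next to chromosome 19 with 64.4 and 64.1%, within its interval.

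E2F3 signal at the lost sites ran from weak to strong. The fold enrichment at the summit, the authors' own ratio to background, had a median of 12.4 at lost sites (quartiles 7.67 and 19.4, highest 87.4), against 45.6 at kept sites, 7.13 at lost peaks in 1 to 3 Pol2S5p lists and 6.14 at those in none. When the 12998 E2F3 peaks in all 4 Pol2S5p lists were put into 10 classes of equal size by E2F3 strength, 956 of 1300 in the strongest class were lost (73.5%, interval 71.1 to 75.9%). In the other classes the share lay between 97.4 and 99.8%. The kept sites thus came mainly from the strongest class, which held 344 of the 441. These values belong to the contrast that chose the sites and are a description.

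**Figure D1:**
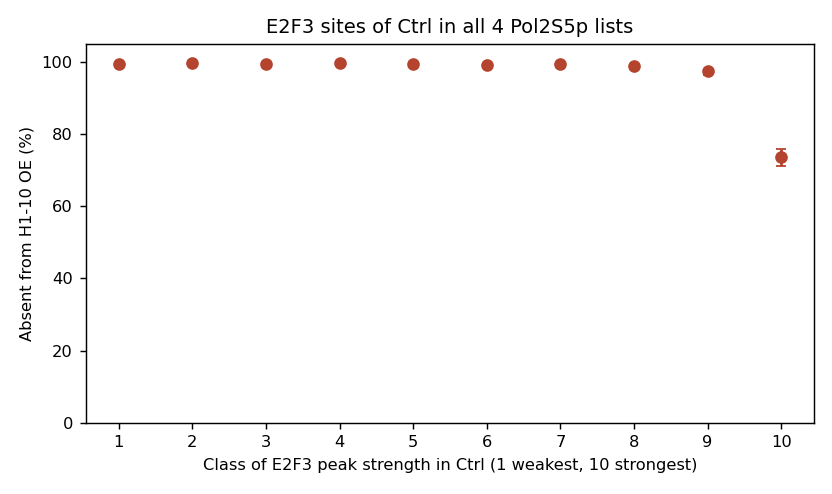
Percent of E2F3 Ctrl peaks in all 4 Pol2S5p lists that were absent from the H1-10 OE list (vertical axis), by class of E2F3 strength in Ctrl (horizontal axis, about 1300 peaks a class); bars are 95% Wilson intervals. The share is 97.4% or more in classes 1 to 9 and 73.5% in class 10.

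The site with the highest -log10 q among all lost sites, chr1:160067856-160069201, had an E2F3 fold enrichment of 77.2 and stood over small Pol2S5p peaks of 684 bp in H1-10 OE, 379 bp in Ctrl, 296 bp in siE2F3 and 417 bp in siCtrl. Its nearest E2F3 peak of H1-10 OE was 1328 kb away. The second, chr12:112450650-112452085, had a fold enrichment of 65.1 and broad Pol2S5p peaks of 2482, 2276, 3142 and 3104 bp in the same order of lists. Named cell-cycle genes held 3 of the 10 highest: UHRF1, which recognises hemimethylated DNA and brings DNMT1 to it, CDKN2C, an INK4 inhibitor of CDK4 and CDK6, and TFDP1. The longest E2F3 peak of the class, chr19:871852-877909, spanned 6058 bp and met 4 separate Pol2S5p peaks in H1-10 OE, 3 in Ctrl, 6 in siE2F3 and 3 in siCtrl.

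At a lost site the Pol2S5p peak was usually a single one that contained the E2F3 summit. Exactly 1 Pol2S5p peak overlapped 98.2% of the sites in H1-10 OE, 98.5% in Ctrl, 98.5% in siE2F3 and 99.4% in siCtrl. The E2F3 summit lay inside it at 97.0, 97.6, 97.9 and 99.3% of the sites in those lists. The Pol2S5p peaks were among the stronger of their own lists. Their median fold percentile was 84.3 in H1-10 OE, 82.7 in Ctrl, 91.7 in siE2F3 and 92.2 in siCtrl. At kept sites it was higher, 91.0, 87.6, 95.6 and 95.7 in the same order. Both sets were chosen to have a peak in all 4 lists, so these percentiles are a description. Sites can share a peak: the 12557 sites fell in 11584 Pol2S5p peaks of H1-10 OE, 11379 of Ctrl, 11326 of siE2F3 and 11194 of siCtrl, with up to 9 sites in a single peak. Where a site met more than 1 peak, the peak with the largest overlap was used.

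The width of that peak had a median of 1373 bp in H1-10 OE (interval 1358 to 1392 bp) and 1246 bp in Ctrl (1231 to 1265 bp). In the siRNA lists it was 1762 bp in siE2F3 (1739 to 1784 bp) and 1936 bp in siCtrl (1916 to 1959 bp). Peaks were thus slightly wider in H1-10 OE than in Ctrl, and slightly narrower in siE2F3 than in siCtrl. Over all Pol2S5p regions found in all 4 lists, the length each list covered went the same way. Its median was 1333 bp in H1-10 OE, 1212 bp in Ctrl, 1831 bp in siE2F3 and 1976 bp in siCtrl. The direction was therefore not particular to the lost sites. Read depth is unknown, so a difference in depth within a pair cannot be told apart from a change of width. At kept sites the medians were larger in every list, 1713 bp in H1-10 OE, 1591 bp in Ctrl, 2351 bp in siE2F3 and 2379 bp in siCtrl. The widths of the middle and the top of the distribution did not move alike. Pol2S5p peaks of at least 10 kb covered 82 lost sites in H1-10 OE (0.653%) and 408 in Ctrl (3.25%). In the siRNA lists they covered 773 in siE2F3 (6.16%) and 1041 in siCtrl (8.29%). At kept sites the shares were 1.81% in H1-10 OE, 5.44% in Ctrl, 9.75% in siE2F3 and 10.7% in siCtrl. A lower share in H1-10 OE than in Ctrl was therefore not particular to the lost sites. The 408 sites lay in 165 long peaks of Ctrl, and 62 of them were also in a peak of at least 10 kb in H1-10 OE. Their median width was 4.03 kb in H1-10 OE and 13.1 kb in Ctrl, where they were selected to be long, and 11.2 kb in siE2F3 and 12.2 kb in siCtrl.

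**Figure D2:**
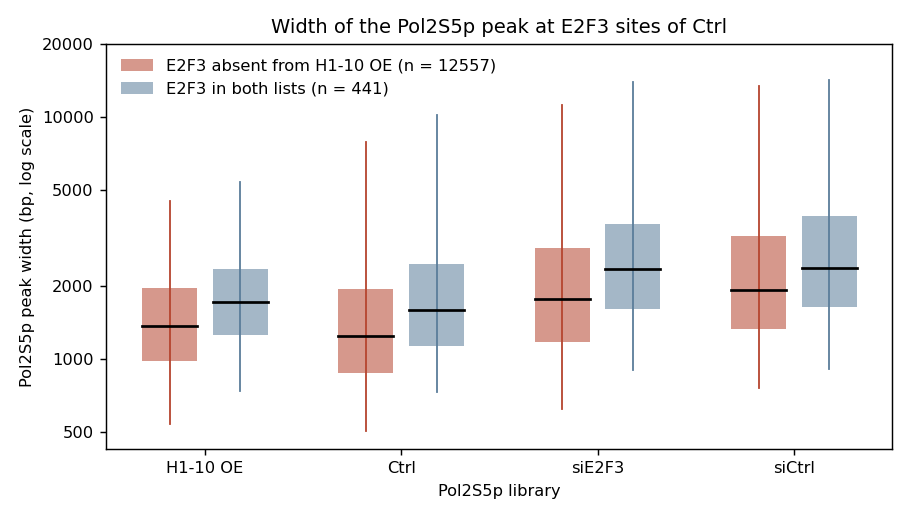
Width of the Pol2S5p peak (log scale, bp) at lost sites (n = 12557) and kept sites (n = 441) in the 4 Pol2S5p libraries; boxes run between quartiles, the black line is the median and the thin line runs from the 5th to the 95th percentile. Medians at lost sites are 1373 bp in H1-10 OE, 1246 bp in Ctrl, 1762 bp in siE2F3 and 1936 bp in siCtrl, each below the kept sites of its list.

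Site by site, the Pol2S5p peak was wider in H1-10 OE than in Ctrl at 7081 sites (56.4%, interval 55.5 to 57.3%) and narrower at 5467, with a median log2 width ratio of 0.08 (0.07 to 0.09). It was at least 2-fold wider at 1010 sites (8.04%) and at least 2-fold narrower at 1258 (10.0%). Over all Pol2S5p regions found in all 4 lists, by covered length, 55.7% were wider and 44.3% narrower in H1-10 OE, and 9.04% and 9.78% passed 2-fold. By the same covered length, regions with a lost and no kept site were 62.1% wider and 37.9% narrower, and 8.37% and 4.64% passed 2-fold. These were 10895 of the 16109 regions. Kept sites had a median log2 ratio of 0.02 (-0.03 to 0.08) and were wider at 52.4%, a share 4.01 percentage points below that of lost sites; the interval of the difference, -0.69 to 8.75, includes 0. In siE2F3 against siCtrl the peak was narrower at 8369 lost sites (66.6%) and wider at 4164, with a median log2 ratio of -0.10 (-0.11 to -0.10). It was at least 2-fold narrower at 970 sites (7.72%) and at least 2-fold wider at 167 (1.33%), where the shares over all regions were 67.2% narrower and 32.6% wider, and 2.66% and 0.31% past 2-fold. Kept sites had a median of -0.03 and were narrower at 58.5%, 8.14 points below lost sites (3.56 to 12.9). The count per site enters a long peak once for each E2F3 site in it, whereas covered length enters each region once and sums all peaks in it. The measures are therefore unlike, and shares per site are not compared with shares over all regions in either pair.

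Set against Pol2S5p regions without E2F3, those with a lost site were wider in H1-10 OE relative to Ctrl. The 4 Pol2S5p lists were joined, and the 16109 joined regions with a peak in every list were compared by the length each list covered. The 10895 regions with a lost and no kept site covered a median of 1415 bp in H1-10 OE and 1209 bp in Ctrl, a median log2 ratio of 0.15 (0.14 to 0.16). The 4613 regions with no E2F3 peak of Ctrl covered 995 bp in H1-10 OE and 1131 bp in Ctrl, a median log2 ratio of -0.20 (-0.24 to -0.17). Regions wider in H1-10 OE were 62.1% of those with a lost site and 41.1% of those without E2F3, a difference of 20.9 points (19.2 to 22.6). Regions at least 2-fold narrower were 4.64% with a lost site and 21.6% without E2F3, a difference of -16.97 points (-18.2 to -15.7). Those at least 2-fold wider were 8.37% with a lost site and 10.7% without E2F3, a difference of -2.36 points (-3.41 to -1.35). Changes of 2-fold in H1-10 OE over Ctrl were thus rarer with a lost site in both directions. The 437 regions with a kept site had a median of 0.12 (0.05 to 0.17), so that lost and kept sites alike stood above the regions without E2F3.

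In siE2F3 against siCtrl the medians were closer. Regions with a lost site had a median log2 ratio of -0.08 (-0.09 to -0.08) and those without E2F3 a median of -0.10 (-0.11 to -0.10). They were narrower at 66.9% and 67.9%, a difference of -0.93 points whose interval, -2.54 to 0.69, includes 0. Changes of 2-fold were rare in both, with 1.69% of regions narrower by that much with a lost site and 4.90% without E2F3, a difference of -3.21 points (-3.91 to -2.57). Whether the H1-10 OE and siRNA pairs differ in this gap was not tested. The order of the H1-10 OE medians held within size. In small, medium and large regions, the median log2 ratio was 0.11, 0.21 and 0.11 with a lost site, and -0.09, -0.19 and -0.27 without E2F3.

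**Figure D3:**
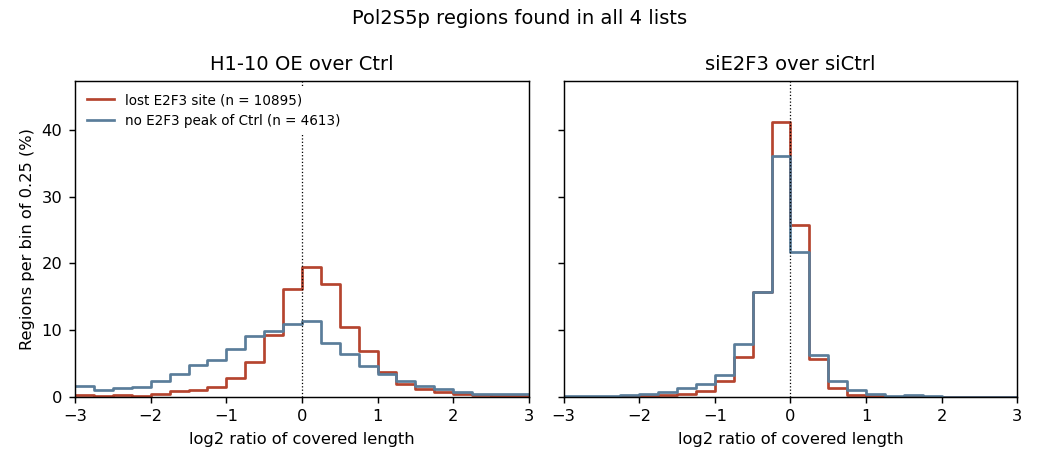
Distribution of the log2 ratio of covered length at Pol2S5p regions in all 4 lists, H1-10 OE over Ctrl (left) and siE2F3 over siCtrl (right), for 10895 regions with a lost E2F3 site and 4613 with no E2F3 peak of Ctrl; the vertical axis is the percent of regions in bins of 0.25, and values past 3 in size are put in the end bins. On the left the regions without E2F3 reach further to negative values, with medians of 0.15 and -0.20, and on the right the curves lie closer, with medians of -0.08 and -0.10.

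The strongest class of lost E2F3 sites had somewhat wider Pol2S5p peaks. The median width at the strongest of 3 classes was 1490 bp in H1-10 OE, 1365 bp in Ctrl, 1876.5 bp in siE2F3 and 2059.5 bp in siCtrl, against 1261.5, 1173.5, 1666 and 1872 bp at the weakest. The middle class had 1355, 1182, 1718 and 1868 bp in the same order. Medians thus rose with each class in H1-10 OE and siE2F3. In Ctrl and siCtrl the middle class was close to the weakest. In the 3 classes of lost sites from weakest to strongest, with median E2F3 folds of 6.36, 12.4 and 22.9, the median log2 ratio of H1-10 OE over Ctrl was 0.04 (0.02 to 0.06), 0.11 (0.09 to 0.13) and 0.10 (0.08 to 0.11), and 14.3, 7.98 and 7.76% were at least 2-fold narrower in H1-10 OE. The median ratio of siE2F3 over siCtrl was -0.11, -0.10 and -0.10. The ratio also differed with the size of the Pol2S5p peak. In the widest of 3 classes by the mean log width over the 4 lists, the median of H1-10 OE over Ctrl was -0.05 and 17.4% were at least 2-fold narrower in H1-10 OE, against a median of 0.17 and 4.80% in the middle class. The class is set by the same widths, so this is a description. Between the pairs, 65.5% of the sites wider in H1-10 OE and 68.2% of those narrower in H1-10 OE were narrower in siE2F3 than in siCtrl, a difference of -2.73 points (-4.39 to -1.07).

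The extremes lay where some lists had a long peak and others a short one. The lowest ratio of H1-10 OE over Ctrl was at chrX:53310573-53311066, where the Pol2S5p peak was 670 bp in H1-10 OE and 99079 bp in Ctrl, and 680 bp in siE2F3 and 1364 bp in siCtrl. A second lost site, chrX:53253857-53255123, lay in the same Ctrl peak and had 1657 bp in H1-10 OE, 1981 bp in siE2F3 and 2057 bp in siCtrl. At the other end, chr19:35760190-35760871 had a peak of 9455 bp in H1-10 OE and 780 bp in Ctrl, and 10446 bp in siE2F3 and 13202 bp in siCtrl. In the siRNA pair the widest gain was at chr19:7694315-7694764, with 18586 bp in siE2F3 and 936 bp in siCtrl, and the deepest fall at chr19:1260647-1261608, with 580 bp in siE2F3 and 18241 bp in siCtrl, beside 4322 bp in H1-10 OE and 21345 bp in Ctrl.

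The summit of E2F3 sat close to that of Pol2S5p. The median distance was 142 bp in H1-10 OE (interval 139 to 145 bp), 126 bp in Ctrl (123 to 128 bp), 165 bp in siE2F3 (162 to 169 bp) and 160 bp in siCtrl (157 to 162 bp). Within 100 bp were 36.4% of the sites in H1-10 OE, 41.3% in Ctrl, 28.7% in siE2F3 and 30.6% in siCtrl, and 1580 sites (12.6%) were within 100 bp in all 4 lists. More than 1 kb apart were 5.78, 7.05, 8.59 and 9.42% of the sites in those lists. At 7935 sites (63.2%) the Pol2S5p summit was on the same side of the E2F3 summit in all 4 lists. Kept sites had larger medians, 176 bp in H1-10 OE, 161 bp in Ctrl, 187 bp in siE2F3 and 188 bp in siCtrl, and had wider peaks. The share within 100 bp was higher at lost than at kept sites by 4.45 points in H1-10 OE (-0.12 to 8.72), which includes 0, by 8.69 in Ctrl (4.10 to 12.99), by 5.09 in siE2F3 (0.84 to 8.90) and by 4.50 in siCtrl (0.14 to 8.47). At kept sites 4.76% were over 1 kb apart in H1-10 OE, 7.26% in Ctrl, 6.58% in siE2F3 and 6.58% in siCtrl, so in H1-10 OE, siE2F3 and siCtrl a smaller share than at lost sites.

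**Figure D4:**
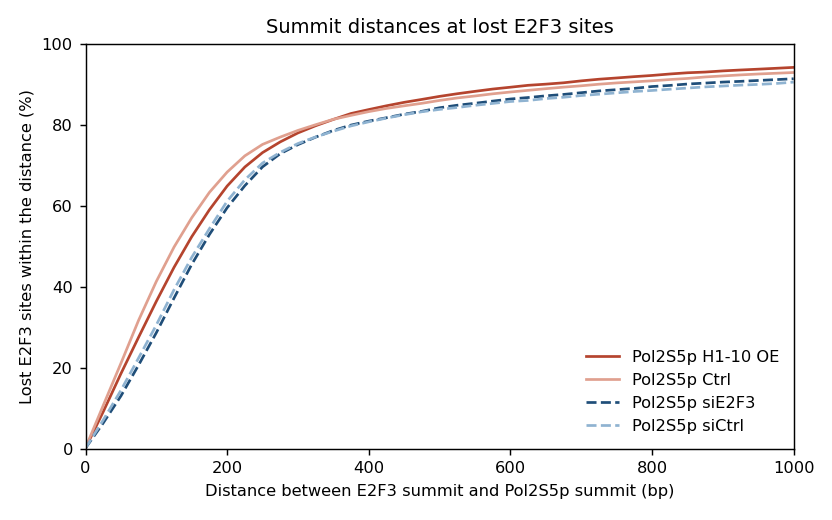
Percent of the 12557 lost E2F3 sites (vertical axis) whose E2F3 summit lay within a given distance of the Pol2S5p summit (horizontal axis, bp), in each of the 4 Pol2S5p libraries. Within 100 bp the curves stand at 36.4% for H1-10 OE, 41.3% for Ctrl, 28.7% for siE2F3 and 30.6% for siCtrl.

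The Pol2S5p summit itself moved little. Between H1-10 OE and Ctrl its median shift at lost sites was 67 bp (65 to 69 bp), with 62.4% within 100 bp and 10.7% over 500 bp. Between siE2F3 and siCtrl it was 36 bp (35 to 37 bp), with 77.5% within 100 bp and 6.47% over 500 bp. At kept sites the shifts in these pairs were 51 and 34 bp. Between the control lists, Ctrl and siCtrl, the median shift at lost sites was 75 bp (73 to 77 bp), with 12.4% over 500 bp. That was more than between H1-10 OE and Ctrl. At kept sites the shift between the control lists was 65 bp.

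H3K27me3 was rare beside the lost sites, as it was beside the kept sites. A peak of H3K27me3 lay within 5 kb of 181 sites in H1-10 OE (1.44%, interval 1.25 to 1.67%), against 5.14% of all E2F3 Ctrl peaks, and of 60 sites in Ctrl (0.478%, 0.371 to 0.615%), against 2.9%. At a distance of 1 kb the shares were 0.844% in H1-10 OE and 0.255% in Ctrl, and with H3K27me3 peaks of a -log10 q of at least 5 they were 0.725 and 0.215%. The H3K27me3 lists held 18395 peaks in H1-10 OE and 2540 in Ctrl. Of the 441 kept sites, 1 had an H3K27me3 peak within 5 kb in H1-10 OE and 1 in Ctrl (0.227%, interval 0.04 to 1.27% in each list). A low share was therefore not particular to the lost sites. Lost peaks missing a Pol2S5p list had one at 10.1% in H1-10 OE and 6.16% in Ctrl, so that the lost sites at constant Pol2S5p differed from them by -8.68 points in H1-10 OE (-9.33 to -8.06). In both lists 18 of the sites had an H3K27me3 peak, in H1-10 OE alone 163 and in Ctrl alone 42, which leaves 12334 with neither. Among lost sites overlapped by an H3K27me3 peak of H1-10 OE, the strongest by -log10 q, apart from 1 on chromosome 8, was chr1:228134303-228136095, with an E2F3 fold of 32.6.

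Sites were then set beside the starts of 128 cell-cycle genes in 8 lists. Since no hg19 annotation was used, the gene starts came from general knowledge of hg19 and not from an annotation file, and a site was given to a gene when its E2F3 summit lay within 1 kb of the start. The site may also lie at the start of a neighbouring gene. Of the 128 starts, 125 lay in a Pol2S5p peak of all 4 lists. A lost site at constant Pol2S5p was found at 65 starts and a kept site at 58. CDKN1C, an inhibitor of cyclin-dependent kinases, had a lost peak that missed a Pol2S5p list, and RPA3, CCND2, CCNE2 and CDKN2A had no E2F3 summit within 1 kb. Cell-cycle lost sites were strong ones, with a median E2F3 fold of 27.8 against 12.4 over all lost sites, and 40 of the 65 were among the strongest 10% of the E2F3 Ctrl list, as were 1758 of all 12557. In the strongest of the 10 classes, 30 of 87 cell-cycle sites were lost (34.5%, interval 25.3 to 44.9%), against 956 of 1300 over all sites of the class. In the other 9 classes 35 of 36 were lost. These counts are the contrast that chose the sites, so nothing is read from them.

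By list, lost and kept sites fell as follows. Genes of DNA replication were split, with 11 lost and 12 kept for licensing and origin firing and 9 lost and 11 kept for the replication fork. The nucleotide synthesis genes TYMS, RRM1, RRM2, TK1 and DUT had kept sites. Genes of G2 and mitosis had 18 lost and 7 kept, those of G1 and S phase 11 lost and 3 kept, those of the E2F family 7 and 6, those of DNA repair 7 and 9 and the chromatin genes 2 and 4. At the 65 lost sites the Pol2S5p peak was wider in H1-10 OE than in Ctrl at 37 and narrower at 28, and wider in siE2F3 than in siCtrl at 36 and narrower at 28, with medians of 0.10 and 0.03 on the log2 scale against 0.08 and -0.10 over all lost sites. With peaks within 1 kb merged, 41 were wider and 24 narrower in H1-10 OE, and 29 wider and 35 narrower in siE2F3, so the count in the siRNA pair gives no direction.

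Within the E2F family, TFDP1 at chr13:114238496-114239758 had an E2F3 fold of 72.7 and a Pol2S5p peak of 1513 bp in H1-10 OE and 1599 bp in Ctrl. Its peak was 6194 bp in siE2F3 and 1678 bp in siCtrl, a log2 ratio of 1.88 that turned to -0.02 when peaks within 1 kb were merged. E2F4, a repressor-type E2F, had a weak E2F3 peak at chr16:67225915-67226354 with a fold of 5.82. Its Pol2S5p peak was 700 bp in H1-10 OE and 1700 bp in Ctrl, a log2 ratio of -1.28, and 14176 bp in siE2F3 and 20132 bp in siCtrl. TFDP2, the other DP protein listed, went the opposite way, with 1218 bp in H1-10 OE and 570 bp in Ctrl. RB1, the retinoblastoma protein itself, had an E2F3 fold of 23.5 and near equal widths, 1678 bp in H1-10 OE and 1909 bp in Ctrl, 1932 bp in siE2F3 and 1642 bp in siCtrl. RBL2, a pocket protein of the same family, had 1052 bp in H1-10 OE and 1636 bp in Ctrl.

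Of the licensing genes, MCM5, a helicase subunit, had the highest E2F3 fold, 67.3, at chr22:35795607-35796639. Its Pol2S5p peak was 1747 bp in H1-10 OE and 1102 bp in Ctrl, and 6202 bp in siE2F3 and 5655 bp in siCtrl. MCM2, at chr3:127316834-127317596 with a fold of 50.7, had 2135 bp in H1-10 OE and 1588 bp in Ctrl, and 4326 bp in siE2F3 and 3828 bp in siCtrl. Both were wider in H1-10 OE than in Ctrl. In siE2F3 over siCtrl the log2 ratio at MCM2 was 0.18, and -0.018 with peaks within 1 kb merged. The origin recognition subunits ORC1 to ORC6 all had lost sites, with E2F3 folds from 8.94 at ORC5 to 29.6 at ORC1. GINS1 had an E2F3 fold of 32.0 at chr20:25388062-25388773 and 1006 bp in H1-10 OE and 932 bp in Ctrl, a log2 ratio of 0.11 that was 1.16 with peaks within 1 kb merged. In siE2F3 its peak was 5480 bp and in siCtrl 2287 bp, a log2 ratio of 1.26 that was 0.69, under 2-fold, with the same merging. The summits of E2F3 and Pol2S5p at GINS1 were 74 bp apart in H1-10 OE, 4 bp in Ctrl, 85 bp in siE2F3 and 50 bp in siCtrl.

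At the replication fork, the highest E2F3 folds were 59.9 at RPA1, a subunit of the single-strand DNA binding protein RPA, and 59.1 at POLD1, the catalytic subunit of DNA polymerase delta. RPA1 had 1712 bp in H1-10 OE and 1039 bp in Ctrl, and 1810 bp in siE2F3 and 1786 bp in siCtrl. POLE2, at chr14:50154238-50155304, had a fold of 41.3, with 1307 bp in H1-10 OE and 910 bp in Ctrl, and 1556 bp in siE2F3 and 1903 bp in siCtrl. PCNA, the sliding clamp of the fork, had a fold of 47.3 and 1008 bp in H1-10 OE and 1103 bp in Ctrl, a log2 ratio of -0.13 that turned to 0.44 with peaks merged, and 2088 bp in siE2F3 and 1977 bp in siCtrl. POLD2, the accessory subunit of polymerase delta, had the largest siRNA difference of the list, 13041 bp in siE2F3 and 2737 bp in siCtrl, a log2 ratio of 2.25 that turned to -0.17 with peaks within 1 kb merged. PRIM2, the large subunit of primase, had 738 bp in siE2F3 and 1519 bp in siCtrl, a log2 ratio of -1.04 that was -0.38 with all overlapping peaks summed and -0.14 with peaks merged.

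The G1 and S phase genes held the widest differences between H1-10 OE and Ctrl. CCND1, which encodes cyclin D1, had an E2F3 peak at chr11:69454738-69456200 with a fold of 22.8. Its Pol2S5p peak was 752 bp in H1-10 OE and 21971 bp in Ctrl, a log2 ratio of -4.87 that was -2.92 with peaks within 1 kb merged, and 10912 bp in siE2F3 and 11834 bp in siCtrl. A weaker lost site at chr11:69453756-69454441 lay in the same Ctrl peak. CDKN1B, an inhibitor of CDK2, had 2070 bp in H1-10 OE and 11262 bp in Ctrl, a ratio of -2.44, and 2991 bp in siE2F3 and 2424 bp in siCtrl, so there the Ctrl list alone had a long peak. CDK6, a partner of D-type cyclins, had 3584 bp in H1-10 OE and 393 bp in Ctrl, a ratio of 3.19, and 4741 bp in siE2F3 and 4615 bp in siCtrl. Its Pol2S5p summit was 2672 bp from the E2F3 summit in H1-10 OE and 77 bp in Ctrl, and 2736 bp in siE2F3 and 2626 bp in siCtrl. CDKN1A, an inhibitor of CDK2 and target of the p53 pathway, had 2431 bp in H1-10 OE and 1293 bp in Ctrl, a log2 ratio of 0.91 that was 0.073 with peaks within 1 kb merged. CDKN2C, at chr1:51433634-51435302 with a fold of 81.6, had close to equal widths in all lists, 2801 bp in H1-10 OE, 2714 bp in Ctrl, 3202 bp in siE2F3 and 2783 bp in siCtrl.

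**Figure D5:**
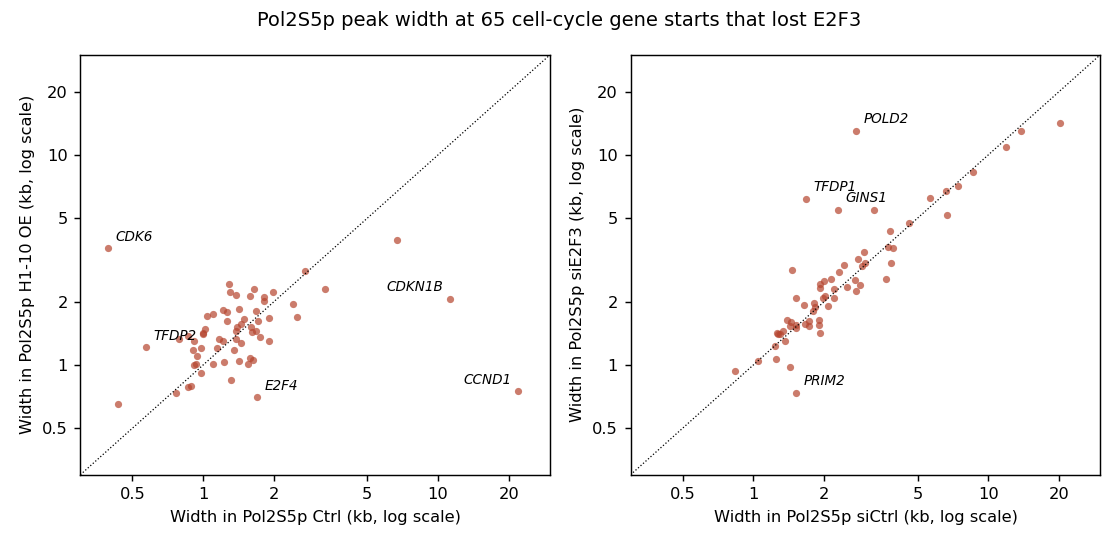
Width of the Pol2S5p peak (kb, log scales) at the 65 cell-cycle gene starts with a lost E2F3 site, H1-10 OE against Ctrl (left) and siE2F3 against siCtrl (right); each point is a site and the dotted line marks equal width. On the left CCND1, CDKN1B and E2F4 lie below the line and CDK6 and TFDP2 above it; on the right TFDP1, POLD2 and GINS1 lie above and PRIM2 below, of which TFDP1 and POLD2 reverse when peaks within 1 kb are merged.

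The G2 and mitosis genes varied less, and none of the 18 passed 2-fold in either pair. With peaks within 1 kb merged, AURKA (1.47) and PLK1 (1.18) did in H1-10 OE over Ctrl, and MAD2L1 (1.44), TOP2A (1.30) and FOXM1 (-1.48) in siE2F3 over siCtrl, on the log2 scale. FOXM1, a transcription factor of mitotic genes, had the highest E2F3 fold, 50.9, with 1357 bp in H1-10 OE and 1741 bp in Ctrl, and 2429 bp in siE2F3 and 1925 bp in siCtrl. PLK1, a mitotic kinase, had 2235 bp in H1-10 OE and 1295 bp in Ctrl. CDC20, an activator of the anaphase-promoting complex, had one of the wider peaks, 3954 bp in H1-10 OE and 6674 bp in Ctrl, and 7082 bp in siE2F3 and 7448 bp in siCtrl. CCNB1, which encodes cyclin B1, had a weak E2F3 peak with a fold of 7.96, with 1007 bp in H1-10 OE and 1551 bp in Ctrl. Of the repair genes, FANCA of the Fanconi anaemia core complex had the highest E2F3 fold, 54.3, with 1855 bp in H1-10 OE and 1418 bp in Ctrl, and ATM, a kinase of the DNA damage checkpoint, followed with 52.7, with 1522 and 1392 bp in the same order.

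Both chromatin genes were wider in H1-10 OE. UHRF1, at chr19:4908805-4910407, had the highest E2F3 fold of all lost sites, 87.4. Its Pol2S5p peak was 1829 bp in H1-10 OE and 1220 bp in Ctrl, and 3590 bp in siE2F3 and 3933 bp in siCtrl. The log2 ratio of H1-10 OE over Ctrl was 0.58, and 1.20 with peaks within 1 kb merged. SUZ12, a subunit of the Polycomb complex that writes H3K27me3, had 1611 bp in H1-10 OE and 1258 bp in Ctrl, and 1555 bp in siE2F3 and 1515 bp in siCtrl. Among the luminal markers, HOXB13, a homeobox factor of the prostate, had a lost site within the distance used, with 1523 bp in H1-10 OE and 12221 bp in Ctrl, and 1392 bp in siE2F3 and 1648 bp in siCtrl. The long peak at HOXB13 was thus found in Ctrl alone.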

How the data were processed

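The peak lists of 8 ChIP-seq libraries of 22Rv1 cells were analysed, 1 library per group as labelled; the other 14 samples were not analysed here. The submitters' processing notes name FastQC, fastp, Bowtie and build hg19. Versions, peak caller and threshold: not given in the sources used here. Each list was called by the authors on its own library. Its columns hold the deposited score of each peak, the deposited fold at the summit (a ratio to background), the deposited −log10 p and −log10 q and the deposited summit offset in bp. The lowest −log10 q was 1.30. These values were used only to describe, rank or filter peaks within a list. Read depth is unknown. Peak width depends on depth and threshold. Width ratios were taken within H1-10 OE and Ctrl and within siE2F3 and siCtrl. This does not remove a difference in depth between the libraries of a pair.

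Overlap meant at least 1 bp; a site's Pol2S5p peak was the one with the largest overlap. Regions for covered length were the joined rows of the 4 Pol2S5p lists. Strength was ranked by −log10 q. The sites, the gene lists and the comparisons were chosen with earlier results of these data known. The rule for named sites took the 10 highest −log10 q, the 5 extremes of each width ratio at each end among peaks of at least 500 bp, the 3 longest, and sites at listed genes; the text gives part of these, and some listed genes are not reported here. Gene starts were written from general knowledge of hg19; against RefSeq GRCh38.p14 the chromosome was the same for 146 of 146 listed genes and the gene length within 1 kb for 110. Planned shares of sites by gene position, sequence around summits and families by symbol stem needed an hg19 annotation or genome and were not run. The overlap code was tested on simulated data with planted copies and checked with bedtools 2.31.1. Tools were matplotlib 3.10.9, scipy 1.17.1, pandas 2.3.3 and numpy 2.4.6 under Python 3.11.15.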

Additional observations from a re-analysis of the deposited data

How the results depend on the processing

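No paired analysis was possible because every group is 1 library. For the same reason no replicate could be left out. The number of lost sites at constant Pol2S5p ran from 11733 (E2F3 Ctrl peaks with a −log10 q of at least 5) to 12918 (50% reciprocal overlap counted as present) over the 6 alternatives tried. With E2F3 peaks of a −log10 q of at least 5, the median summit distance was 138 bp in H1-10 OE, 122 in Ctrl, 161 in siE2F3 and 156 in siCtrl. With the E2F3 summit inside a Pol2S5p peak in all 4 lists it was 135, 120, 159 and 153 bp. With Pol2S5p peaks of a −log10 q of at least 5, the median width was 1413 bp in H1-10 OE, 1272 in Ctrl, 1804 in siE2F3 and 1972 in siCtrl, and the median log2 ratio of siE2F3 over siCtrl was -0.10, still below 0. With peaks within 1 kb merged, the widths were 1601, 1358, 2294 and 2560 bp, and the median log2 ratios were 0.14 for H1-10 OE over Ctrl and -0.081 for siE2F3 over siCtrl, each with its sign unchanged. At the 65 cell-cycle sites merging changed the sign of 4 ratios of H1-10 OE over Ctrl and 15 of siE2F3 over siCtrl. Those of siE2F3 over siCtrl that were past 2-fold before or after it turned at TFDP1 to -0.021, POLD2 to -0.17, ORC1 to -1.76, CDK2 to -2.13, FOXM1 to -1.48 and TOP2A to 1.30; no such ratio of H1-10 OE over Ctrl did. The share of sites near H3K27me3 was 0.844% in H1-10 OE and 0.255% in Ctrl at a distance of 1 kb, and 0.725% and 0.215% with H3K27me3 peaks of a −log10 q of at least 5. Summed widths of all overlapping peaks, the nearest summit and autosomes alone moved these medians by less than their interval. Merging also took 9 of the ratios at cell-cycle genes past 2-fold in the same direction, and 2 below it. The cause of these differences was not tested.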
